A study of Homo sapiens with 12 samples.

Results

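The results concern the interaction of TGF-β1 with dexamethasone in BEAS-2B cells, that is, how far the transcriptional effect of the glucocorticoid with TGF-β1 present departed from its effect without it. For each gene the interaction was the log2 dexamethasone effect in cells given TGF-β1 minus the log2 dexamethasone effect in cells not given it. A positive value says that dexamethasone raised the gene more, or lowered it less, when TGF-β1 was present, and a negative value says the opposite. All 12 libraries of the series entered the contrast, and 13469 of the 28395 gene identifiers in the count table passed the low-count filter and were tested. BEAS-2B cells are human airway lining cells that a virus hybrid made immortal. The 4 groups of 3 libraries were TGF-β1 (40 pM, 24 h) followed by dexamethasone (30 nM, a further 4 h), TGF-β1 alone, dexamethasone alone, and untreated control. All groups had been kept without serum for 24 h, and they are called here combined, TGF-β1, dexamethasone and control. The labels name the same line for every library and call the libraries biological triplicates, so the results describe 1 cell line.

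Dexamethasone is a synthetic ligand of the glucocorticoid receptor, NR3C1. The liganded receptor enters the nucleus, binds DNA directly at induced genes, and lowers many inflammatory genes that depend on NF-κB and AP-1. TGF-β1 binds serine/threonine kinase receptors that phosphorylate SMAD transcription factors, and in airway epithelium it drives matrix production and loss of epithelial features. Glucocorticoids are used against airway inflammation, and TGF-β1 is abundant in the remodelled airway wall.

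Library totals ran from 5861591 to 7008203 counts in replicates 1 and 2 and from 17968961 to 19727235 in replicate 3 of the groups. The sum of the 7 tested airway epithelial markers ran from 1750 to 2600 CPM (counts scaled to a common library size) in combined libraries, 1190 to 1750 CPM in TGF-β1 libraries, 2110 to 2710 CPM in dexamethasone libraries and 1710 to 1890 CPM in controls. Of the A549 and alveolar list 2 of 8 genes were tested, and they summed to between 0.852 and 5.22 CPM in combined, 0.785 and 4.64 CPM in TGF-β1, 13.9 and 33.5 CPM in dexamethasone and 11.5 and 37.7 CPM in control libraries; the surfactant genes did not pass the filter. The 3 tested fibroblast markers summed to between 775 and 1000 CPM in combined, 634 and 750 CPM in TGF-β1, 267 and 428 CPM in dexamethasone and 252 and 379 CPM in control libraries, and 1 of them had a positive interaction. The part of these marker lists in the results was not tested. The growth protocol names A549 cells whereas the remaining label fields give BEAS-2B, and the groups were kept as labelled. In bulk RNA a lower level in every cell and fewer cells that express the gene cannot be told apart, and CPM values are shares of a library.

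At an adjusted p under 0.05 (edgeR quasi-likelihood test, Benjamini-Hochberg over all 13469 genes) the interaction was positive for 406 genes, 3.01% of those tested, and negative for 238 genes, 1.77%. It was at least 1 in size on the log2 scale, that is 2-fold, for 89 positive and 57 negative genes. Taken within replicate number 1, 2 and 3 separately, all 406 positive genes and 237 of the 238 negative genes had the same sign in each. RAPGEF3 was the exception and was picked out after its values were seen. The calls were made on these same libraries and favour genes with such agreement, so these counts are a description. Over all genes tested the median interaction was -0.01, with 6436 positive and 7033 negative values. At an unadjusted p under 0.05 there were 1969 genes. The fit used the replicate number as a block, because same-numbered libraries deviated together. Without the replicate block 65 genes were positive and 54 negative, and 117 of these 119 were among the 644. With the block kept, leaving a replicate number out of all groups gave 230 calls without number 1, 966 without number 2 and 276 without number 3.

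Dexamethasone itself raised 1275 genes with TGF-β1 present (9.47% of those tested) and 1461 without it (10.8%), and it lowered 1078 with TGF-β1 (8.0%) and 1535 without it (11.4%). With library size alone as the scaling these became 1053 raised and 1535 lowered with TGF-β1, and 1127 raised and 2035 lowered without it, so the balance of rises and falls depends on the scaling. The interaction calls split 422 to 235 under that scaling.

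Sorting the 644 interaction genes by their dexamethasone calls gave a few large classes. These calls share libraries with the interaction, so the counts are a description. Among the 406 positive genes, 223 were lowered by dexamethasone without TGF-β1: 123 of them were not called with TGF-β1, 76 were lowered by less, and 24 were raised instead. A further 102 were raised with TGF-β1 and not called without it, 75 were raised in both backgrounds and by more with TGF-β1, and 6 were called in neither. Among the 238 negative genes, 194 were raised by dexamethasone without TGF-β1: 86 of them rose by less with TGF-β1, 95 were not called with it, and 13 were lowered. Another 33 were lowered with TGF-β1 and not called without it, 7 were lowered by more, and 4 were called in neither. By the effect of TGF-β1 alone, 227 positive genes were lower and 85 higher in TGF-β1 libraries than in controls, against 42 lower and 138 higher among the negative genes. The effect of TGF-β1 alone enters the interaction with a minus sign, so such a split is partly built in and is a description. The share of all genes called for that effect is not given here.

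**Figure D1:**
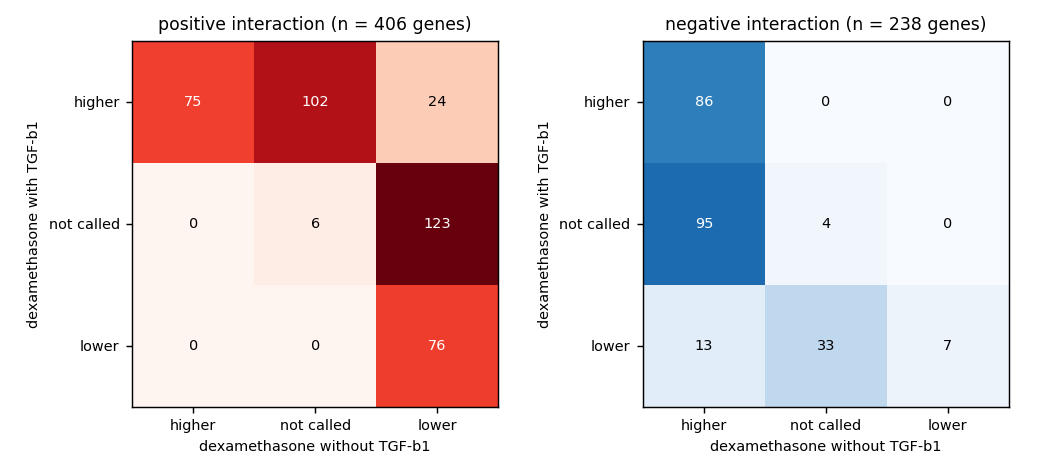
Numbers of interaction genes by their dexamethasone call with TGF-β1 (rows) and without TGF-β1 (columns), for positive interactions on the left and negative ones on the right; darker cells hold more genes. The fullest cells are the 123 positive genes lowered without TGF-β1 and not called with it, and the 95 negative genes raised without TGF-β1 and not called with it.

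To look at the whole steroid response, genes were chosen by their dexamethasone effect averaged over the 2 backgrounds (called, and at least 1 in size on the log2 scale). For the 373 genes raised on average, the median log2 effect was 1.66 with TGF-β1 and 1.69 without, the median interaction was -0.08, and 54.2% rose by less with TGF-β1. In that set 42 genes had a positive and 51 a negative interaction, 24.9% in all, beside 4.78% of all genes tested. For the 213 genes lowered on average, the median effect was -1.24 with TGF-β1 and -1.53 without, the median interaction was 0.31, and 65.7% fell by less with TGF-β1. There 34 interactions were positive and 2 negative, 16.9% in all, beside the same 4.78%. Both sets were chosen on the same libraries, so these shares are a description. The falls were thus smaller with TGF-β1 for most strongly lowered genes, while the rises were split nearly evenly.

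**Figure D2:**
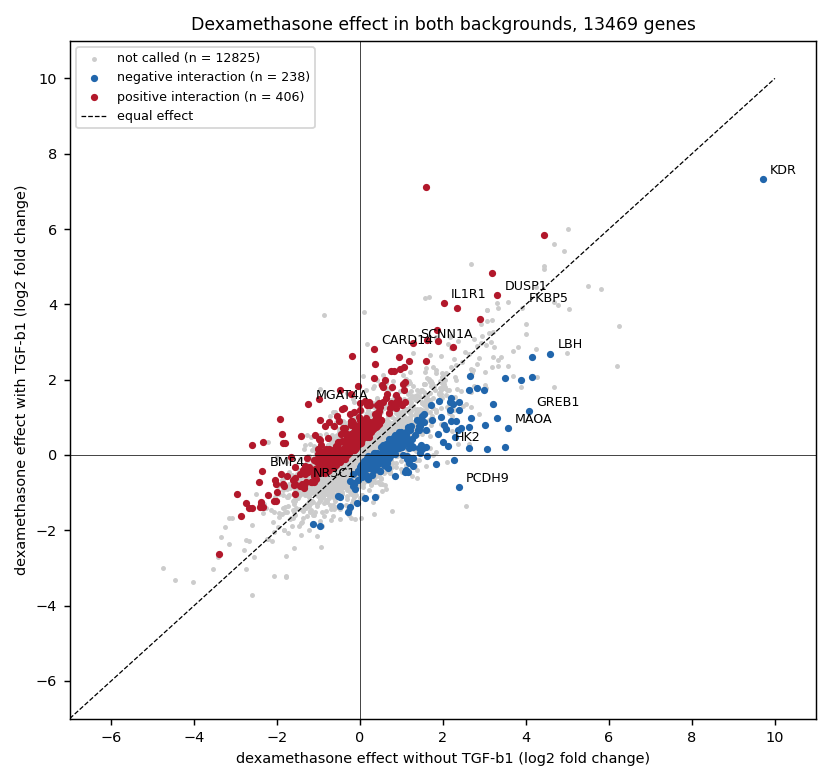
Log2 dexamethasone effect with TGF-β1 (vertical axis) against that without TGF-β1 (horizontal axis) for the 13469 genes, with 406 positive interactions in red, 238 negative ones in blue and the others in grey. The dashed line marks equal effects; FKBP5 lies on it, MAOA, GREB1 and PCDH9 lie below it, and CARD14 and IL1R1 lie above it.

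The receptor gene itself had an interaction. NR3C1, which encodes the glucocorticoid receptor (Entrez 2908, chr5:143277931-143435512 on hg38), counted 118, 149.7 and 133 CPM in combined and 194, 248 and 221 CPM in TGF-β1 libraries. Without TGF-β1 the counts were 104, 152 and 116 CPM in dexamethasone and 275, 348 and 293 CPM in control libraries. Dexamethasone lowered the receptor mRNA in both backgrounds with no overlap between treated and untreated libraries, and by less with TGF-β1, where the level before the steroid was also lower. The log2 effects were -0.72 with TGF-β1 and -1.31 without, and the interaction was 0.59 ± 0.08 (SE, 3 libraries a group; adjusted p = 2.91e-05). Without the replicate block its adjusted p was 0.362. Of the 22 tested genes for the receptor, its chaperones and coregulators, NR3C1 was the 1 called, 4.55% beside 4.78% of all genes. The list's median interaction was -0.03 beside -0.01 for all genes.

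Several textbook glucocorticoid targets had no called interaction in the reported fit. FKBP5, a co-chaperone that restrains the receptor, averaged 1472 ± 216 CPM in combined and 97.5 ± 6.53 CPM in TGF-β1 libraries, and 2410.0 ± 147 CPM in dexamethasone and 161 ± 17.3 CPM in control libraries (SD, n = 3 each). It was lower with TGF-β1 both with and without the steroid, and its log2 rise was 3.91 with TGF-β1 and 3.90 without. The interaction was 0.02 ± 0.13 (SE), with an approximate 95% interval of -0.24 to 0.27. PER1, a clock repressor, gave 0.06 ± 0.11 with an interval of -0.16 to 0.28.

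The intervals were wider for others. TSC22D3, which encodes the anti-inflammatory leucine zipper GILZ, had an interaction of -0.95 ± 0.31 (interval -1.57 to -0.34, adjusted p = 0.219), and KLF9, a transcriptional repressor, had 0.56 ± 0.15 (interval 0.26 to 0.86, adjusted p = 0.078). ZBTB16, a zinc finger regulator with log2 rises of 6.01 with TGF-β1 and 5.01 without, had 1.01 ± 0.39 (adjusted p = 0.227). These missed the threshold, which does not show equal effects. With replicate number 2 left out of all groups, TSC22D3, KLF9 and ZBTB16 were called (adjusted p = 2.31e-13, 8.57e-06 and 0.0173). Without number 1 (0.695, 0.514 and 0.716) or number 3 (0.613, 0.132 and 0.411) they were not. With DESeq2 on all libraries KLF9 was called (adjusted p = 0.0153), and the other 2 were not (0.0875 and 0.652). CDKN1C, a cyclin-dependent kinase inhibitor, PDK4, a kinase that turns off pyruvate dehydrogenase, and CRISPLD2, a secreted protein, had interactions of 0.22, 0.50 and -0.05 with adjusted p of 0.924, 0.813 and 0.975.

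Genes of glucocorticoid-induced channels, transport and metabolism moved apart: 4 of 14 tested had a negative and 2 a positive interaction. These calls were 42.9% of the tested list, beside 4.78% of all genes, and the median was 0.0022. MAOA (Entrez 4128, chrX:43655006-43746817), the mitochondrial oxidase of serotonin and noradrenaline, counted 9.40, 16.2 and 12.04 CPM in combined and 7.18, 7.42 and 7.74 CPM in TGF-β1 libraries. The dexamethasone libraries had 76.1, 72.0 and 70.5 CPM, against 6.06, 7.92 and 5.36 CPM in controls. The dexamethasone libraries stood far above the other groups, and the combined libraries lay just above the TGF-β1 ones. Its log2 rise was 0.71 with TGF-β1 and 3.56 without, an interaction of -2.85 ± 0.21 (SE; adjusted p = 4.56e-08).

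SGK1 (Entrez 6446, chr6:134169256-134318112), a kinase that keeps epithelial sodium channels at the membrane, was already higher with TGF-β1 before the steroid. It counted 129, 149 and 106 CPM in combined and 88.5, 74.4 and 60.2 CPM in TGF-β1 libraries. Dexamethasone libraries held 155, 194 and 159.6 CPM and controls 22.9, 15.1 and 21.5 CPM. Both steroid-treated groups ended above 100 CPM, from baselines that did not overlap, and the interaction was -2.23 ± 0.26 (adjusted p = 0.00308). GLUL, glutamine synthetase, rose by 1.20 with TGF-β1 and 2.17 without on the log2 scale, an interaction of -0.96 ± 0.10 (adjusted p = 1.09e-05).

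SCNN1A (Entrez 6337, chr12:6346847-6377359), the alpha subunit of that sodium channel, went the other way. It counted 37.8, 39.3 and 49.1 CPM in combined and 4.03, 4.64 and 6.84 CPM in TGF-β1 libraries. Given no TGF-β1, steroid-treated libraries counted 131, 130.3 and 175 CPM, against 56.9, 45.8 and 76.6 CPM in controls. TGF-β1 libraries were lowest, and the steroid brought the combined libraries to values that overlap the control range and stay below the dexamethasone range. Within each replicate number the combined library was below its control. The log2 rise was 2.97 with TGF-β1 and 1.28 without, an interaction of 1.69 ± 0.14 (adjusted p = 1.27e-07). Its annotated span overlaps that of LTBR, and the strand setting of the counting is not given in the sources used here, so shared reads cannot be assigned.

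**Figure D3:**
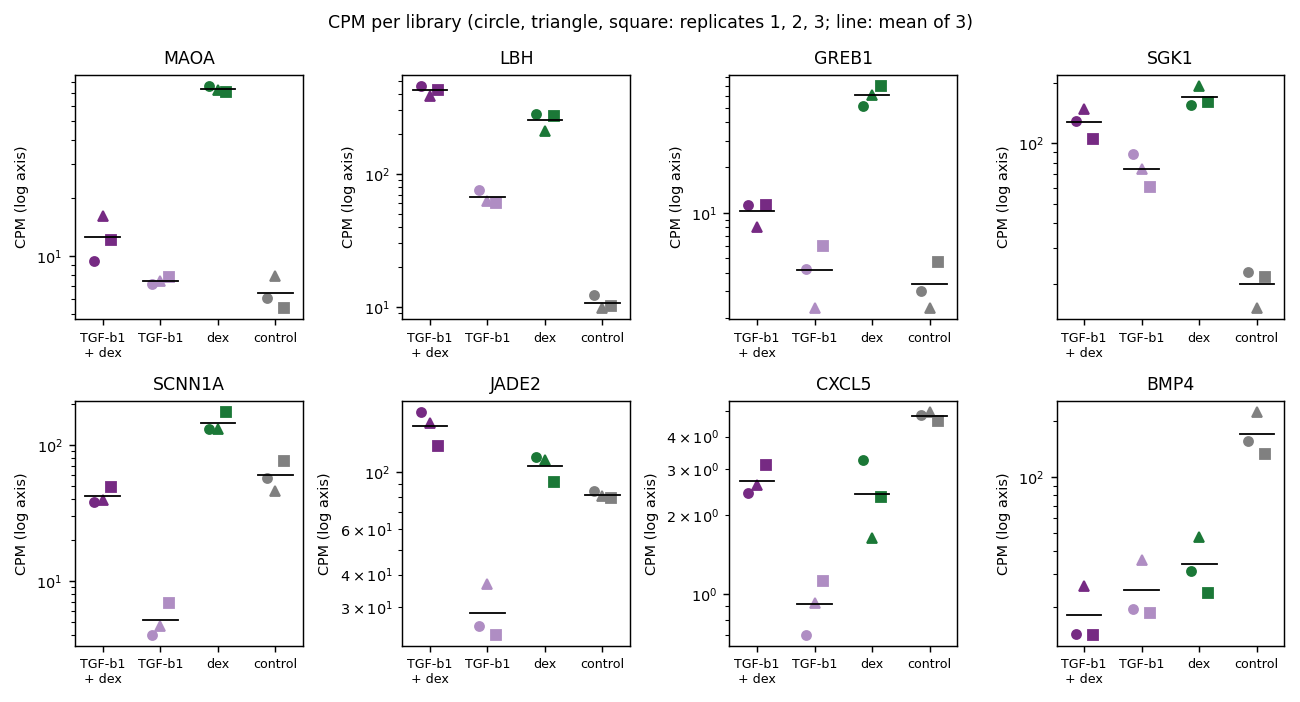
CPM of 8 interaction genes in each library on a log axis, with the combined group at the left of each panel, then TGF-β1, dexamethasone and control; symbols mark replicates 1, 2 and 3 and lines the means of 3. MAOA and GREB1 are highest in the dexamethasone libraries, SGK1 and LBH have raised levels with TGF-β1 alone, SCNN1A, JADE2 and CXCL5 are lowest with TGF-β1 alone, and BMP4 is highest in controls.

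Of 20 glucocorticoid-induced transcription regulators 16 rose with dexamethasone in both backgrounds. The median log2 effects of the list were 1.65 with TGF-β1 and 1.70 without. Of all genes tested, dexamethasone raised 9.47% with TGF-β1 and 10.8% without it. In the list 3 interactions were negative and 1 positive (median 0.06), where 4.78% of all genes were called. TIPARP, a mono-ADP-ribosyltransferase, rose by 1.79 with TGF-β1 and 2.82 without, an interaction of -1.03 ± 0.12 (adjusted p = 3.94e-05, and 0.375 without the replicate block). FOXO3, a forkhead factor of stress resistance, gave -0.80 ± 0.13 (adjusted p = 0.00309, and 0.166 without replicate number 1) and its relative FOXO1 gave 0.74 ± 0.12 (adjusted p = 5.72e-04, and 0.29 without the replicate block). CEBPB, a basic leucine zipper factor, had -0.67 (adjusted p = 0.00987, and 0.203 without the replicate block).

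Among 19 inhibitors of signalling 6 interactions were positive and 1 negative, 36.8% beside 4.78% of all genes, and the median was 0.40. The list was drawn up as glucocorticoid-induced, but dexamethasone raised 9 and lowered 1 of its genes with TGF-β1, and raised 8 and lowered 6 without it. SOCS3, SOCS1 and SPRY1 were among those lowered. Of all genes tested, 9.47% were raised and 8.0% lowered with TGF-β1, and 10.8% were raised and 11.4% lowered without it. DUSP1, the phosphatase that inactivates p38 and JNK, counted 388, 396 and 258 CPM in combined and 15.9, 23.4 and 14.7 CPM in TGF-β1 libraries. In dexamethasone libraries it counted 268, 292 and 224 CPM, against 30.2, 25.8 and 22.5 CPM in controls. It rose strongly in both backgrounds, by 4.25 with TGF-β1 and 3.31 without on the log2 scale, an interaction of 0.94 ± 0.14 (adjusted p = 8.34e-04, and 0.25 without the replicate block). SOCS3, a suppressor of cytokine receptor signalling, was lowered without TGF-β1 (-1.03) and had 0.16 with it (adjusted p = 0.358), an interaction of 1.19 ± 0.15 (adjusted p = 2.86e-05). SOCS1, its relative, had 2.88 ± 0.62 (adjusted p = 0.00589) on 38, 21, 26 and 101 reads in combined, TGF-β1, dexamethasone and control libraries; its adjusted p was 0.0651 without the replicate block and 0.0505 without dexamethasone replicate 3.

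The Sprouty genes, which encode feedback inhibitors of receptor tyrosine kinase signalling, diverged. SPRY2 rose by 0.80 with TGF-β1 and 2.02 without, an interaction of -1.21 ± 0.18 (adjusted p = 1.80e-04, and 0.203 without the replicate block). SPRY1 fell without TGF-β1 (-2.33) and had 0.36 with it (adjusted p = 0.701), an interaction of 2.69 ± 0.56 (adjusted p = 0.00438, and 0.0633 without the replicate block). Its level with TGF-β1 was low, 1.95, 0.522 and 0.791 CPM in combined and 0.350, 1.24 and 0.729 CPM in TGF-β1 libraries, against 2.66, 1.49 and 1.44 CPM in dexamethasone libraries and 9.10, 7.45 and 9.27 CPM in controls. NFKBIA, the inhibitor IκBα that holds NF-κB in the cytoplasm, rose by 2.87 with TGF-β1 and 2.25 without, an interaction of 0.63 ± 0.11 (adjusted p = 9.48e-04, and 1 without the replicate block). It counted 131, 192 and 99.8 CPM in combined and 19.8, 21.2 and 15.0 CPM in TGF-β1 libraries. Dexamethasone libraries had 164, 234 and 135 CPM and controls 36.8, 51.7 and 26.1 CPM. Within each replicate number the combined library was below the dexamethasone one, and the CPM rise was smaller with TGF-β1. None of the 5 metallothionein genes tested was called, beside 4.78% of all genes. All 5 rose both with and without TGF-β1, where dexamethasone raised 9.47% and 10.8% of all genes. These metallothionein genes are near-identical copies whose reads the counting may have split. The other 2 tested members of that list, the regulator MTF1 and the zinc transporter SLC30A1, were not called either.

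Among all genes called, the 12 with the largest negative interaction at a mean log2 CPM of at least 1 were NKD1, PCDH9, GREB1, FIBIN, MAOA, FOS, KDR, SGK1, TMEM63C, UNC5B, LBH and HK2, with values between -3.29 and -1.89. GREB1 (Entrez 9687, chr2:11482888-11642788), known as an oestrogen receptor cofactor, counted 11.3, 8.01 and 11.2 CPM in combined and 4.21, 2.32 and 6.06 CPM in TGF-β1 libraries. Without TGF-β1 the counts were 51.1, 60.5 and 69.9 CPM in dexamethasone and 3.03, 2.33 and 4.73 CPM in control libraries. As for MAOA, the dexamethasone libraries stood apart from the other groups, and the interaction was -2.91 ± 0.28 (adjusted p = 5.34e-06).

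HK2, the hexokinase of the first step of glycolysis, counted 45.0, 43.2 and 56.9 CPM in combined and 41.2, 24.6 and 56.3 CPM in TGF-β1 libraries. The dexamethasone libraries had 217, 174 and 235 CPM, against 44.7, 40.4 and 59.2 CPM in controls. The rise without TGF-β1 (2.12, adjusted p = 2.73e-07) was not callable with it (0.23, adjusted p = 0.322), an interaction of -1.89 ± 0.18 (adjusted p = 1.46e-04). FIBIN had the same shape, with log2 effects of 0.16 and 3.05 with and without TGF-β1 and an interaction of -2.90 ± 0.25 (adjusted p = 2.53e-07, and 0.203 without the replicate block). FOS, the AP-1 subunit, rose without TGF-β1 (2.63) and had 0.19 with it, an interaction of -2.44 ± 0.38 (adjusted p = 2.70e-04, and 0.287 without the replicate block).

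LBH (Entrez 81606, chr2:30231534-30260028), a transcription cofactor of limb and heart development, was raised by each treatment. It counted 461, 388 and 424 CPM in combined and 76.2, 63.1 and 60.5 CPM in TGF-β1 libraries. Dexamethasone libraries held 280.5, 209 and 273 CPM and controls 12.3, 9.78 and 10.2 CPM. The combined libraries were the highest of all groups, so the interaction of -1.89 ± 0.11 (adjusted p = 1.41e-09) is a shortfall from multiplied effects. As differences of CPM, the dexamethasone effect was larger with TGF-β1 by 114 ± 11.9 CPM (SD, 3 replicate numbers).

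PCDH9 (Entrez 5101, chr13:66302834-67230336), a protocadherin, changed direction. It counted 41.2, 48.2 and 47.3 CPM in combined and 99.3, 102 and 60.5 CPM in TGF-β1 libraries. Given no TGF-β1, steroid-treated libraries counted 10.9, 16.4 and 13.8 CPM, against 2.73, 2.02 and 2.75 CPM in controls. Dexamethasone lowered it with TGF-β1 (-0.86, adjusted p = 0.0126) and raised it without (2.38, adjusted p = 0.00139), an interaction of -3.23 ± 0.39 (adjusted p = 0.00223). With replicate number 2 left out of all groups the adjusted p was 0.124. NKD1, an inhibitor of Wnt signalling, rose by 3.50 without TGF-β1 from 12 reads in the 3 control libraries and had 0.21 with it; its interaction of -3.29 ± 0.64 (adjusted p = 0.00726) was not called without control replicate 3 (0.147). UNC5B, a netrin receptor, and TMEM63C, a membrane channel protein, rose in both backgrounds and by less with TGF-β1, with interactions of -1.90 ± 0.24 (adjusted p = 2.60e-04, and 0.152 without the replicate block) and -2.06 ± 0.39 (adjusted p = 0.00201, and 0.243 without replicate number 3).

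KDR (Entrez 3791, chr4:55078481-55125595), a receptor of vascular endothelial growth factor, had the largest fold rises of the genes named here. It counted 85.6, 136 and 87.3 CPM in combined and 0.701, 0.464 and 0.617 CPM in TGF-β1 libraries. In dexamethasone libraries it counted 163, 336 and 184 CPM, against 0, 0.621 and 0.193 CPM in controls. The log2 effects were 7.33 with TGF-β1 and 9.71 without, but they start from 18 reads in all TGF-β1 and 8 reads in all control libraries. The interaction of -2.38 ± 0.60 (adjusted p = 0.0232) was not called without the replicate block (0.823), nor without control replicate 3, TGF-β1 replicate 1 or TGF-β1 replicate 3 (adjusted p up to 0.212). Of the endothelial markers CDH5, PECAM1, VWF, TEK and EMCN, the 2 that were tested summed to at most 3.72 CPM in a library.

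Promoter sequences (RefSeq, GRCh38.p14, 250 bases before to 50 after the start site) were at hand for 10659 of the 13469 genes, and short motifs were counted in them on both strands. The receptor's half-site AGAACA was in 9.15% of the 306 promoters of positive genes, 7.14% of the 196 of negative genes and 8.7% of all. The AP-1 site TGANTCA was in 6.21%, 3.57% and 4.53%, and the E-box CACGTG in 11.4%, 10.2% and 10.1%. The full inverted repeat of the half-site around 3 free bases was in none of them, and the SMAD palindrome GTCTAGAC was in 0.141% of all promoters and in none of the interaction genes with a promoter. These windows are short and a match is a description only. Of the 99 genes chosen by the naming rule, 10 have the half-site in this window, namely KDR, BHLHE40, FKBP5, ID1, IFIT3, ITGB6, PDK4, PMEPA1, STYXL2 and TGFB3. Not all 99 have a promoter sequence at hand, and 8.7% of all promoters hold the half-site. The 10 are thus listed as a description and not as a share above that of all genes. Shown as examples are the stretches of KDR, described above for its steep rise, and of BHLHE40, which dexamethasone lowered, with matches in capitals: KDR at chr4:55125766-55125845 on the minus strand, where it is read on the opposite strand as TGTTCT, and BHLHE40 at chr3:4979187-4979306 on the plus strand, which also holds an E-box.
KDR: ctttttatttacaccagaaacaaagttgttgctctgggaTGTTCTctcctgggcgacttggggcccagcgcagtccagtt
BHLHE40: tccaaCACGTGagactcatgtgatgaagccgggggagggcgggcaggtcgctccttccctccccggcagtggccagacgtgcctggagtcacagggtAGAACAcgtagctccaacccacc

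**Figure D4:**
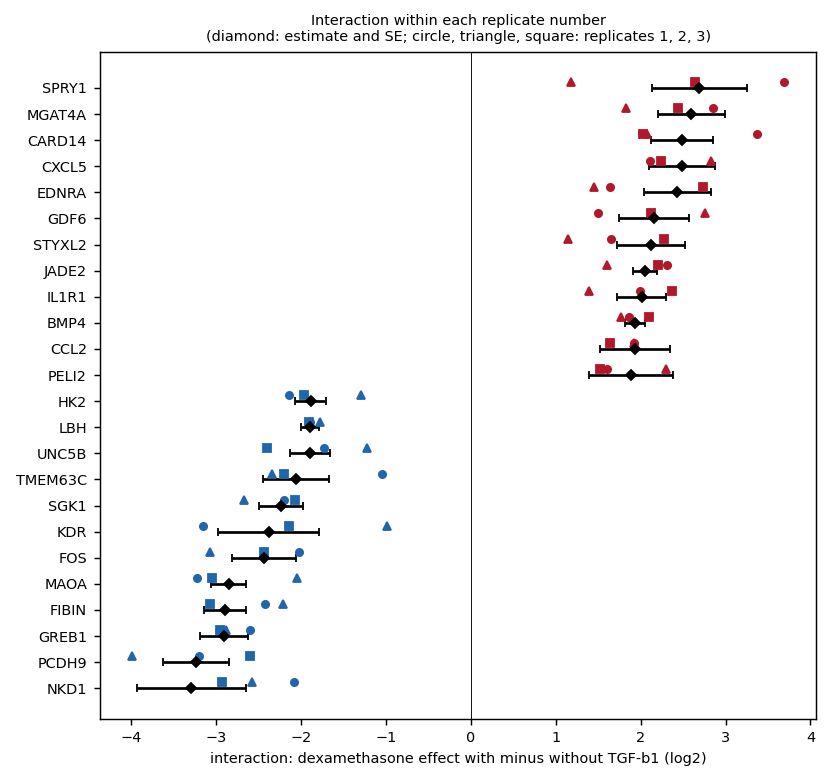
Interaction on the log2 scale for the 12 genes with the largest positive (red) and the 12 with the largest negative (blue) values, with the estimate and its SE as a diamond and bar and the value within replicate numbers 1, 2 and 3 as a circle, triangle and square. In each gene the 3 values lie on the same side of 0, as the choice of these genes required.

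The 12 largest positive interactions, by the same rule, were those of SPRY1, MGAT4A, CARD14, CXCL5, EDNRA, GDF6, STYXL2, JADE2, IL1R1, BMP4, CCL2 and PELI2, with values between 2.69 and 1.88. JADE2 (Entrez 23338, chr5:134524009-134583227), a chromatin-associated ubiquitin ligase, counted 171, 154 and 126 CPM in combined and 25.4, 36.6 and 23.4 CPM in TGF-β1 libraries. Without TGF-β1 the counts were 114, 111 and 91.6 CPM in dexamethasone and 84.6, 80.7 and 78.9 CPM in control libraries. TGF-β1 alone gave the lowest levels and the combination the highest, and the log2 effects of 2.40 and 0.35 with and without TGF-β1 differed by 2.06 ± 0.14 (adjusted p = 1.61e-06).

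IL1R1 (Entrez 3554, chr2:102070390-102179874), the signalling receptor of interleukin-1, counted 149, 250.4 and 144 CPM in combined and 10.5, 12.8 and 9.14 CPM in TGF-β1 libraries. The dexamethasone libraries had 34.6, 65.2 and 28.4 CPM, against 9.70, 8.69 and 9.42 CPM in controls. TGF-β1 and control libraries overlapped, whereas every combined library exceeded every dexamethasone library. The interaction was 2.01 ± 0.29 (adjusted p = 0.00446, and 0.152 without the replicate block). CARD14, a scaffold that activates NF-κB in epithelium, counted 29.5, 17.4 and 15.9 CPM in combined libraries and at most 4.17 CPM in any library of the other groups. Its interaction was 2.49 ± 0.37 (adjusted p = 3.15e-04); its span overlaps that of SGSH. WNT5A, a Wnt ligand, had a similar pattern, with log2 effects of 1.82 with TGF-β1 and -0.06 without and an interaction of 1.88 ± 0.16 (adjusted p = 5.87e-06, and 0.303 without the replicate block).

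For BMP4 the positive value came from a smaller fall. BMP4 (Entrez 652, chr14:53949736-53956891), a bone morphogenetic protein, counted 14.3, 26.1 and 14.2 CPM in combined and 19.6, 36.0 and 18.5 CPM in TGF-β1 libraries. Given no TGF-β1, steroid-treated libraries counted 31.3, 47.8 and 23.9 CPM, against 158, 225 and 133 CPM in controls. Control libraries stood far above all others, and each treatment alone brought the level down. The log2 fall was -0.43 with TGF-β1 and -2.36 without, an interaction of 1.93 ± 0.12 (adjusted p = 2.52e-09, and 0.203 without the replicate block). EDNRA, an endothelin receptor, fell without TGF-β1 (-1.89) and had 0.55 with it, an interaction of 2.43 ± 0.40 (adjusted p = 4.63e-04, and 0.179 without replicate number 3). MGAT4A, a glycosyltransferase, rose with TGF-β1 (1.35) and fell without it (-1.25), an interaction of 2.60 ± 0.39 (adjusted p = 2.04e-04).

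The other 3 of the 12 depended on single libraries. GDF6, a bone morphogenetic protein relative, was not called when any of 11 libraries was left out (adjusted p up to 0.204), PELI2, a ubiquitin ligase, when any of 8 was (up to 0.199), and STYXL2, a pseudophosphatase, without dexamethasone replicate 3 or combined replicate 3 (up to 0.0859). Their interactions were 2.16 ± 0.41, 1.88 ± 0.49 and 2.12 ± 0.41.

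Inflammatory cytokines and chemokines had 4 positive and no negative interactions among 15 tested, 26.7% beside 4.78% of all genes. Their median interaction was 0.80 beside -0.01 for all genes. Dexamethasone lowered 6 of the 15 with TGF-β1 and 10 without, where 8.0% and 11.4% of all genes were lowered. The median log2 effect was -0.11 with TGF-β1 and -1.78 without. CXCL5, a neutrophil chemokine, counted 2.43, 2.61 and 3.10 CPM in combined and 0.701, 0.928 and 1.12 CPM in TGF-β1 libraries. In dexamethasone libraries it counted 3.25, 1.64 and 2.35 CPM, against 4.85, 4.97 and 4.59 CPM in controls. The steroid moved it upward with TGF-β1 (1.50) and downward without (-0.99), an interaction of 2.49 ± 0.39 (adjusted p = 3.01e-04). CXCL1, another neutrophil chemokine, fell without TGF-β1 (-2.60) and had 0.28 with it, an interaction of 2.87 ± 0.54 (adjusted p = 0.00169, and 0.0699 without replicate number 1). It held 31, 27, 33 and 195 reads in combined, TGF-β1, dexamethasone and control libraries. The level before the steroid averaged 0.88 CPM with TGF-β1 and 6.49 CPM without, so a fall with TGF-β1 could hardly be measured.

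CCL2, a monocyte chemokine, counted 1.30, 3.48 and 1.28 CPM in combined and 3.15, 5.57 and 2.97 CPM in TGF-β1 libraries. Without TGF-β1 the counts were 1.63, 1.93 and 0.957 CPM in dexamethasone and 15.3, 12.4 and 7.49 CPM in control libraries. The groups that received the steroid ended at overlapping levels, from a lower start with TGF-β1, and the interaction was 1.93 ± 0.41 (adjusted p = 0.0056, and 0.256 without the replicate block). IL6 and CXCL8, mediators that glucocorticoids classically lower, fell in both backgrounds, with log2 effects of -3.03 and -3.33 with TGF-β1 and -3.55 and -4.46 without it. Their interactions had adjusted p of 0.813 and 0.905, and CXCL8 held 1 read in combined and 14 reads in TGF-β1 libraries, so its response with TGF-β1 could hardly be measured at this depth.

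The NF-κB list held 1 positive and 1 negative call among 18, 11.1% beside 4.78% of all genes (median -0.07). They were NFKBIA, given above, and BIRC2, an inhibitor of apoptosis, with -0.49 ± 0.12 (adjusted p = 0.0191). The BIRC2 call was lost without the replicate block (0.859) and without any of 5 libraries (up to 0.122). Interferon-stimulated genes had 3 positive and 1 negative call among 23, 17.4% beside 4.78% of all genes, and a median of 0.25 beside -0.01. Dexamethasone lowered 4 of them with TGF-β1 and 12 without, where 8.0% and 11.4% of all genes were lowered. IFIT3, an antiviral protein, counted 4.05, 4.00 and 4.08 CPM in combined and 6.31, 5.10 and 7.46 CPM in TGF-β1 libraries. The dexamethasone libraries had 5.62, 5.65 and 4.69 CPM, against 32.8, 30.4 and 23.7 CPM in controls. Every control library exceeded every other library by a wide margin, and the interaction was 1.73 ± 0.26 (adjusted p = 1.66e-04); its span overlaps that of LIPA. IRF1, an interferon regulatory factor, had 0.98 ± 0.14 (adjusted p = 9.22e-05, and 0.068 without the replicate block).

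Members of the TGF-β pathway itself were looked at next. Of 16 ligands, receptors and latency genes 1 was positive, 6.25% beside the 4.78% called among all genes (median 0.02): TGFB3, the third TGF-β isoform, fell in both backgrounds (log2 effects -1.38 with TGF-β1 and -2.42 without), and its interaction of 1.04 ± 0.27 (adjusted p = 0.0232) was lost without the replicate block (0.493) and without any of 6 libraries (up to 0.203). Of 20 SMADs and SMAD feedback genes 3 were positive and none negative, 15.0% (median 0.08). ID1, an inhibitor of basic helix-loop-helix factors, fell without TGF-β1 (-0.78) and had -0.15 with it, an interaction of 0.63 ± 0.10 (adjusted p = 5.47e-04). TGIF1, a SMAD corepressor, rose with TGF-β1 (0.45) and fell without (-0.32), an interaction of 0.78 ± 0.13 (adjusted p = 8.64e-04, and 0.0968 without the replicate block). SMAD7, the inhibitory SMAD, was lowered in both backgrounds (log2 effects -0.75 with TGF-β1 and -1.02 without), with an interaction of 0.27 ± 0.25 (adjusted p = 0.713).

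TGF-β target genes held 4 negative and 2 positive calls among 24 (median 0.15), where 4.78% of all genes were called. SNAI1, the repressor of E-cadherin in epithelial-mesenchymal transition, counted 47.8, 35.2 and 48.9 CPM in combined and 109, 85.5 and 101 CPM in TGF-β1 libraries. Given no TGF-β1, steroid-treated libraries counted 3.25, 3.27 and 3.92 CPM, against 4.09, 2.33 and 3.43 CPM in controls. Dexamethasone lowered it with TGF-β1 (-1.16) and had 0.13 without (adjusted p = 0.693), an interaction of -1.28 ± 0.19 (adjusted p = 1.50e-04). CDKN2B, the cell cycle inhibitor p15, was lowered in both backgrounds (log2 effects -1.35 with TGF-β1 and -0.49 without), an interaction of -0.86 ± 0.09 (adjusted p = 1.57e-06); its span overlaps that of CDKN2B-AS1. BHLHE40, a transcriptional repressor of the clock, was lowered in both backgrounds (log2 effects -0.47 with TGF-β1 and -1.36 without), an interaction of 0.89 ± 0.10 (adjusted p = 5.08e-06, and 0.568 without the replicate block).

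Matrix, epithelial and protease genes were called at shares of 5.88%, 2.86% and 7.41%, around the 4.78% of all genes. Of 34 extracellular matrix genes 1 was positive and 1 negative (median -0.01). COL8A1, a short-chain collagen, averaged 110.3 ± 16.5 CPM in combined and 31.6 ± 1.99 CPM in TGF-β1 libraries, and 191 ± 16.2 CPM in dexamethasone and 129 ± 4.33 CPM in control libraries (SD, n = 3 each). It rose by 1.79 with TGF-β1 and 0.56 without, an interaction of 1.23 ± 0.10 (adjusted p = 2.06e-07). Of 35 epithelial junction and keratin genes 1 was positive (median 0.01), PPL, the desmosomal linker periplakin, with 0.49 ± 0.09 (adjusted p = 0.00115, and 0.93 without the replicate block). Of 27 metalloproteases and inhibitors 1 was positive and 1 negative (median -0.03); the positive one, ADAM10, had 0.32 and was lost without the replicate block and without any of 9 libraries (adjusted p up to 0.128).

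Actin, myosin and cofilin genes had 5 positive and 1 negative call among 37, 16.2% beside 4.78% of all genes (median 0.04). Integrins had 3 positive calls among 16, 18.8% (median -0.12). SSH1, the phosphatase that activates cofilin, was lowered in both backgrounds (log2 effects -0.24 with TGF-β1 and -0.78 without), an interaction of 0.55 ± 0.09 (adjusted p = 4.06e-04). RHOB, a small GTPase, had 0.49 ± 0.10 (adjusted p = 0.00721), and TPM2, a tropomyosin, had -0.34 ± 0.07 (adjusted p = 0.00257). Without the replicate block these had adjusted p of 0.21, 0.264 and 0.975. CFL1, cofilin itself, had 0.02 ± 0.06 with an interval of -0.11 to 0.14. ITGB8, an integrin subunit that activates latent TGF-β, fell without TGF-β1 (-0.88) and had -0.13 with it, an interaction of 0.75 ± 0.14 (adjusted p = 0.0013, and 0.359 without the replicate block).

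**Figure D5:**
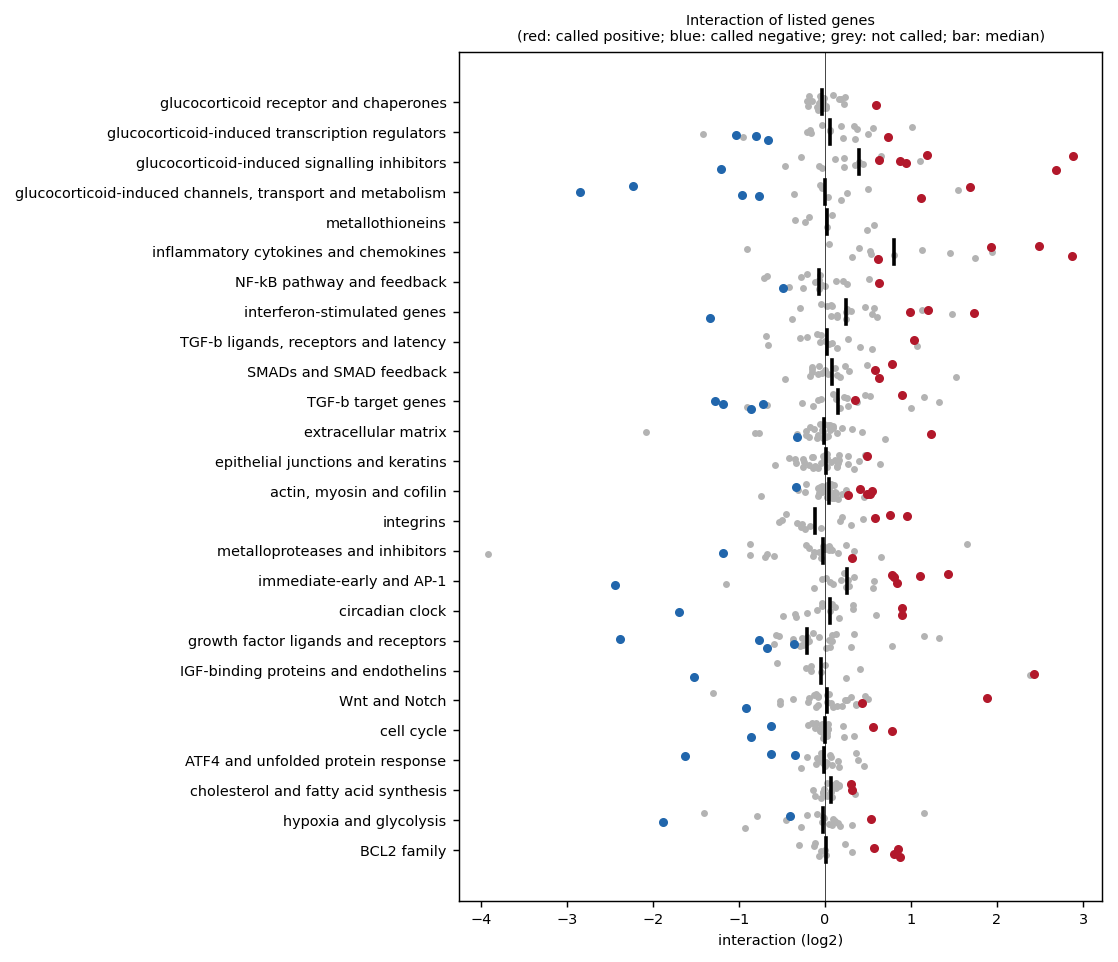
Interaction on the log2 scale for the tested members of the 26 gene lists, 1 row a list, with called positive genes in red, called negative genes in blue, the others in grey and a bar at each median. The bar of inflammatory cytokines and chemokines lies at 0.80 and that of signalling inhibitors at 0.40; those of matrix, epithelial and cell cycle genes lie at about 0.

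Immediate-early and AP-1 genes had 5 positive and 1 negative call among 20, FOS being the negative one. These calls were 30.0% beside 4.78% of all genes, and the median was 0.25. KLF4, a factor of epithelial differentiation, counted 43.3, 30.8 and 41.4 CPM in combined and 21.2, 17.5 and 22.3 CPM in TGF-β1 libraries. In dexamethasone libraries it counted 29.0, 25.6 and 24.0 CPM, against 35.0, 33.7 and 39.8 CPM in controls. It rose with TGF-β1 (0.91) and fell without (-0.51), an interaction of 1.43 ± 0.14 (adjusted p = 1.40e-06). FOSL1, another AP-1 subunit, fell in both backgrounds (log2 effects -0.76 with TGF-β1 and -1.87 without), an interaction of 1.10 ± 0.18 (adjusted p = 5.45e-04, and 0.292 without the replicate block). The circadian clock list held 2 positive and 1 negative call among 17, 17.6% (median 0.06). The negative one, NPAS2, a partner of BMAL1, rose by 0.98 with TGF-β1 and 2.68 without, an interaction of -1.70 ± 0.20 (adjusted p = 1.00e-05).

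Growth factor ligands and receptors had 4 negative and no positive calls among 30, 13.3% beside 4.78% of all genes (median -0.21). EGFR, the epidermal growth factor receptor, counted 195, 196 and 192 CPM in combined and 203, 208 and 189 CPM in TGF-β1 libraries. Without TGF-β1 the counts were 313, 399.7 and 321 CPM in dexamethasone and 223, 236 and 204 CPM in control libraries. It rose without TGF-β1 (0.64) and had -0.03 with it (adjusted p = 0.775), an interaction of -0.67 ± 0.08 (adjusted p = 2.03e-05). AREG, one of its ligands, rose by 1.40 with TGF-β1 and 2.17 without, an interaction of -0.77 ± 0.18 (adjusted p = 0.0133) that was lost without the replicate block (0.259) and without control, dexamethasone or combined replicate 3 (up to 0.0934). The list of IGF-binding proteins and endothelins had 1 positive call, EDNRA, and 1 negative among 11, 18.2% (median -0.05). Wnt and Notch genes had 2 positive and 1 negative among 29, 10.3% (median 0.02).

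Cell cycle genes had 2 positive and 2 negative calls among 33, 12.1% beside 4.78% of all genes (median 0.00 to 2 decimals). CCND1, cyclin D1, was lowered in both backgrounds (log2 effects -0.81 with TGF-β1 and -1.59 without), an interaction of 0.78 ± 0.12 (adjusted p = 4.17e-04, and 0.447 without the replicate block). BCL2 family genes had 4 positive and no negative calls among 13, 30.8% (median 0.01). BCL2L11, the pro-apoptotic protein BIM, fell without TGF-β1 (-0.95) and had -0.07 with it, an interaction of 0.87 ± 0.16 (adjusted p = 0.00652, and 0.328 without replicate number 3). PMAIP1, the pro-apoptotic protein NOXA, rose with TGF-β1 (0.79) and had -0.02 without, an interaction of 0.80 ± 0.16 (adjusted p = 0.00537, and 0.125 without the replicate block). The members called positive thus include pro-apoptotic genes and BCL2 itself, an inhibitor of apoptosis, whose interaction of 0.85 ± 0.22 was lost without any of 6 libraries (adjusted p up to 0.188).

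Of the ATF4 and unfolded protein response genes 3 of 24 were negative and none positive, 12.5% (median -0.01). CHAC1, a glutathione-degrading enzyme induced by ATF4, rose without TGF-β1 (1.60) and had -0.02 with it, an interaction of -1.63 ± 0.30 (adjusted p = 0.00139, and 0.153 without replicate number 3). Cholesterol and fatty acid synthesis genes had 2 positive calls among 23, 8.7% (median 0.07). Hypoxia and glycolysis genes had 1 positive and 2 negative calls among 21, 14.3% (median -0.02), HK2 being the largest. PFKP, a phosphofructokinase, rose with TGF-β1 (0.58) and had 0.04 without, an interaction of 0.53 ± 0.09 (adjusted p = 0.00157, and 0.493 without the replicate block), opposite in sign to HK2. Over the 26 lists 82 of 546 distinct genes were called, 15.0% beside 4.78% of all genes tested; the lists were drawn up with earlier results known, so this share is a description.

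The log2 scale sets what counts as an interaction, since it takes multiplied effects as none. Computed as a difference of CPM differences, the interaction had the same sign for 377 of the 406 positive genes (92.9%) and for 231 of the 238 negative genes (97.1%). For 29 positive and 7 negative genes the sign was opposite, in all 3 replicate numbers for 22 and 6 of them. LBH is such a negative gene, and SCNN1A, BHLHE40 and NFKBIA are among such positive ones, at -48.9 ± 7.62, -44.8 ± 19.5 and -17.1 ± 6.18 CPM (SD). In these named genes the levels before the steroid did not overlap between the backgrounds, so that a smaller fold change was a larger change in CPM, or the reverse.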

How the data were processed

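RNA was measured in 12 libraries. Per the labels' protocols, total RNA with an RNA integrity number above 8 and poly(A) isolation went into a non-directional kit; per the submitters' processing notes, reads were assigned with featureCounts on hg38. For the aligner, annotation, strand setting and vehicle: not given in the sources used here. Deposited values are raw counts per gene, not normalised by the authors. Of 18 count columns 6 carry no label and were not used. Of the 28395 Entrez identifiers 27745 matched the RefSeq table of GRCh38.p14; the 650 others stayed in the fit under their number.

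Genes passing edgeR's filterByExpr (minimum count 10) were fitted with TMM normalisation, a mean per group and the replicate number as a block (edgeR 4.0.16, limma 3.58.1, R 4.3.3), with robust quasi-likelihood tests and a Benjamini-Hochberg adjusted p under 0.05. The block was used because all 18 same-numbered pairs of libraries had correlated deviations from their group means (0.25 to 0.541), against -0.422 to 0.042 for the 36 other pairs; the common biological coefficient of variation was 0.0577 with the block and 0.122 without. Deviations from a group's own mean sum to 0, so the correlations of the other pairs are not independent of those of same-numbered pairs. The labels do not say what the number marks, and the libraries of number 3 are also the deepest of each group. Replicates of a group were distinct libraries, with chi-square values of 5.45 to 16.4 for each degree of freedom. SEs come from the log2 value and F statistic; intervals use a normal approximation. CPM are on TMM-scaled library sizes. Interactions per replicate number took log2 CPM after a prior count of 2. The fit was tested on simulated data.

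Named genes were 18 fixed by name, the 12 largest positive and 12 largest negative interactions (called, with a symbol, mean log2 CPM of at least 1, same sign in 3 replicate numbers), and up to 3 members per list and direction, 99 in all; some of them are not reported here. Members, lists and rules were chosen with earlier results of these data known. Alternatives were other scalings, filters, DESeq2 1.42.0, limma-voom, no block, thinning of replicate 3 and leaving out libraries. Tables and figures used Python 3.11.15, pandas 2.3.3 and matplotlib 3.10.9.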

Additional observations from a re-analysis of the deposited data

Results flagged for a closer look

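Of the 644 interaction genes among 13469 tested, 36 with a symbol had dexamethasone calls in opposite directions in the 2 backgrounds. They were taken from the interaction calls, so a called difference between the backgrounds was part of the choice. In 23 of them dexamethasone raised the gene with TGF-β1 and lowered it without. The log2 interactions were 2.60 for MGAT4A, 2.49 for CXCL5, 1.61 for ANKRD1, 1.43 for KLF4, 1.41 for GCHFR, 1.22 for CDK6, 1.08 for ATP1B1, 1.02 for TET3, 1.01 for DAGLA and 1.00 for PHLDA1. Smaller interactions were 0.88 for SAMD4A, 0.84 for MIDEAS, 0.84 for PDE4D, 0.80 for CHST6, 0.78 for TGIF1, 0.70 for FAT1, 0.67 for SEPTIN9, 0.67 for CCDC80, 0.63 for MBNL2, 0.54 for RUSC2, 0.54 for LRFN4, 0.44 for NETO2 and 0.44 for OGFR.

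In the other 13 it lowered the gene with TGF-β1 and raised it without. The interactions were -3.23 for PCDH9, -1.51 for ABCA1, -1.40 for FITM2, -1.02 for DENND2B, -0.92 for STARD13, -0.90 for LMO7, -0.75 for TSC22D1, -0.73 for BICC1, -0.62 for DCBLD2, -0.60 for NET1, -0.58 for ULK1, -0.44 for MAP3K2 and -0.44 for KCNMA1. ABCA1, the cholesterol exporter, counted 75.2, 73.3 and 64.2 CPM in combined and 98.5, 94.5 and 84.7 CPM in TGF-β1 libraries, and 33.3, 32.1 and 44.9 CPM in dexamethasone and 16.8, 18.3 and 17.6 CPM in control libraries. CDK6, a cell cycle kinase, counted 117, 114 and 104 CPM in combined and 76.9, 103 and 68.6 CPM in TGF-β1 libraries, and 42.7, 62.0 and 45.2 CPM in dexamethasone and 75.0, 93.3 and 82.6 CPM in control libraries. In both genes no steroid-treated library overlapped its own background's untreated libraries.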

How the results depend on the processing

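All calls shared with the reported fit had the same direction under every setting tried, but the number called depended on the fit. A shared call passed the threshold in both fits, on the same libraries or a part of them. Equal direction is thus largely built in and is a description. Without the replicate block 65 genes were positive and 54 negative, 686 rose and 406 fell under dexamethasone with TGF-β1, and 746 rose and 660 fell without it; 29 of the 87 named genes called kept their call. Without a low-count filter 358 interactions were negative. DESeq2 size factors, library size alone, DESeq2, limma-voom, a minimum count of 30 and thinning of replicate 3 gave 553 to 660 interaction calls, within 1.5 times the reported 644. With each library or each replicate number left out in turn (a refit on 11 or 8 libraries), positive interactions numbered 142 to 607 and negative ones 88 to 359, with the lowest counts without replicate number 1 and the highest without number 2. Over the same settings dexamethasone raised 817 to 1389 and lowered 535 to 1191 genes with TGF-β1, and raised 892 to 1561 and lowered 940 to 1675 without it. Of the 87 named genes called, 61 stayed called without each single library, and 21 also without the block and without each replicate number. The reversals among named genes were in genes not called: over the leave-out settings the interaction ranged from -0.368 to 0.304 for CRISPLD2 (0.0828 with replicate 3 thinned), -0.0599 to 0.209 for PER1, -0.19 to 0.50 for CDKN1C, -0.64 to 2.61 for CXCL8, -0.12 to 0.14 for FKBP5, -0.27 to 1.21 for PDK4, -0.00536 to 0.0604 for CFL1 and -0.0681 to 0.494 for SMAD7. The cause of these changes was not tested. CXCL8 held 1, 14, 4 and 93 reads in combined, TGF-β1, dexamethasone and control libraries, and its range is the widest of these.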

Other observations

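Some of the genes with the smallest adjusted p fell outside the naming rule, and those given here were chosen after their values were seen. LIFR, the receptor of leukaemia inhibitory factor, counted 47.1, 49.2 and 48.4 CPM in combined and 30.1, 30.8 and 39.9 CPM in TGF-β1 libraries, and 200.0, 212 and 266 CPM in dexamethasone and 42.9, 44.9 and 50.5 CPM in control libraries. Its interaction was -1.81 ± 0.11 (SE; adjusted p = 1.41e-09), and it shared with MAOA and GREB1 a level in dexamethasone libraries above that of every other library. PLK2, a polo-like kinase, counted 32.1, 35.3 and 27.7 CPM in combined and 96.7, 112 and 86.1 CPM in TGF-β1 libraries, and 39.0, 42.8 and 33.3 CPM in dexamethasone and 281, 304 and 249 CPM in control libraries. The steroid-treated groups of PLK2 ended within overlapping ranges, as those of CCL2 did. Within each replicate number, however, the combined library of PLK2 was below the dexamethasone library. The interaction of PLK2 was 1.23 ± 0.08 (adjusted p = 3.97e-09). GLIS3, a zinc finger factor, had a log2 dexamethasone effect of -0.02 with TGF-β1 (adjusted p = 0.91) and 1.14 without (adjusted p = 6.32e-11), an interaction of -1.16 ± 0.11 (adjusted p = 4.98e-07).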
